A study of Mus musculus with 35 samples.

Results

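The genes described here move lactate and pyruvate across membranes and convert one into the other, or pass pyruvate on to acetyl-CoA. They are the lactate carriers Slc16a1 (MCT1) and Slc16a3 (MCT4) with their chaperone Bsg (basigin, CD147), the lactate dehydrogenase subunits Ldha and Ldhb, the mitochondrial pyruvate carrier subunits Mpc1 and Mpc2, and the pyruvate dehydrogenase subunits Pdha1, Pdhb and Dlat. They were chosen by symbol, and all 10 are listed among the 32285 genes of the lactate and technique tables and the 35624 gene symbols of the AZD3965 table.

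Lactate crosses the plasma membrane with a proton through monocarboxylate carriers, which need basigin to reach the cell surface. MCT1 has a high affinity and is widely expressed, whereas MCT4 has a lower affinity for lactate and is typical of cells that export it, activated macrophages among them. Lactate dehydrogenase is a tetramer of A and B subunits, and pyruvate enters the mitochondrion through a heterodimer of Mpc1 and Mpc2 before the pyruvate dehydrogenase complex oxidises it. The drug of this study, AZD3965, blocks MCT1 and leaves MCT4 largely unaffected.

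The libraries came from 35 single adherent cells labelled macrophages, taken from the abdominal cavity of male C57BL/6 mice aged 6 months and sequenced with a modified SMART-seq2 protocol. The lactate experiment set 8 control cells (CTL) against 8 cells kept in 10 mM lactate (Lactic) for 72 h. In the AZD3965 experiment 5 cells with lactate were set against 5 cells with lactate plus 300 nM AZD3965, so both groups carried lactate and no untreated cells stand beside them. For the technique comparison cytoplasm was first drawn from 4 lactate-treated cells for the metabolome (scMeT-seq), whereas 3 lactate-treated and 2 control cells were lysed whole. Lactate was at 10 mM and treatment lasted 72 h in the AZD3965 experiment and the technique comparison as well. By the study's methods the cells of the first 2 experiments were sampled for their metabolome as well. Which mouse or dish a given cell came from is not stated, so cells were not treated as replicates, each group stood as 1 sample without a replicate check, and no test was run.

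Counts assigned to genes ranged from 269393 to 459859 per cell in the lactate experiment, from 58444 to 175450 in the AZD3965 experiment and from 494520 to 851417 in the technique comparison. Levels are given as CPM, the count of a gene multiplied by 1000000 and divided by the total count, either per cell or after summing counts over the cells of a group. A count of 0 in a single cell allows up to 6.52 to 11.1 CPM in the lactate experiment, 17.1 to 51.3 CPM in the AZD3965 experiment and 3.52 to 6.07 CPM in the technique comparison, taking 3 counts as the limit. All such limits and intervals cover counting error only, since the reads were amplified and carry no molecular identifier that would count molecules. Of 18 macrophage markers 15 to 18 were counted in every cell but CTL32, which had 12, a macrophage marker sum of 1232 CPM and a fibroblast marker sum of 43582 CPM, with 13 of 14 fibroblast markers counted. Fibroblast markers also reached 9319 CPM in CTL30, 7490 CPM in Lactic29, 6662 CPM in W5 and 17622 CPM in W14, the last with 5 of 9 mesothelial markers at 2022 CPM, and stayed at or below 1175 CPM in the other cells.

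Ldha was the most abundant of the 10 genes in every group when levels were set per length. Divided by exonic length, its summed level lay between 730.0 and 1012 CPM per kb, followed by Bsg at 185 to 334 CPM per kb in all 7 groups. Slc16a1 came last at 0.223 to 10.1 CPM per kb, except in whole control cells, where Mpc1 did. When the 7 groups were ordered by the summed level of a gene, the ranges over cells of neighbouring groups overlapped for every gene, with the sole exception of 1 step for Mpc1. Both Ldha and Bsg were counted in 35 of 35 cells, Slc16a3 in 34, Mpc2 in 33, Pdha1, Pdhb and Dlat in 32 each, Ldhb in 27, Mpc1 in 25 and Slc16a1 in 12. The plot of CPM by cell shows the same contrast between Ldha and Bsg, which fill a narrow band in all groups, and the sparse Slc16a1 and Mpc1.

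**Figure D1:**
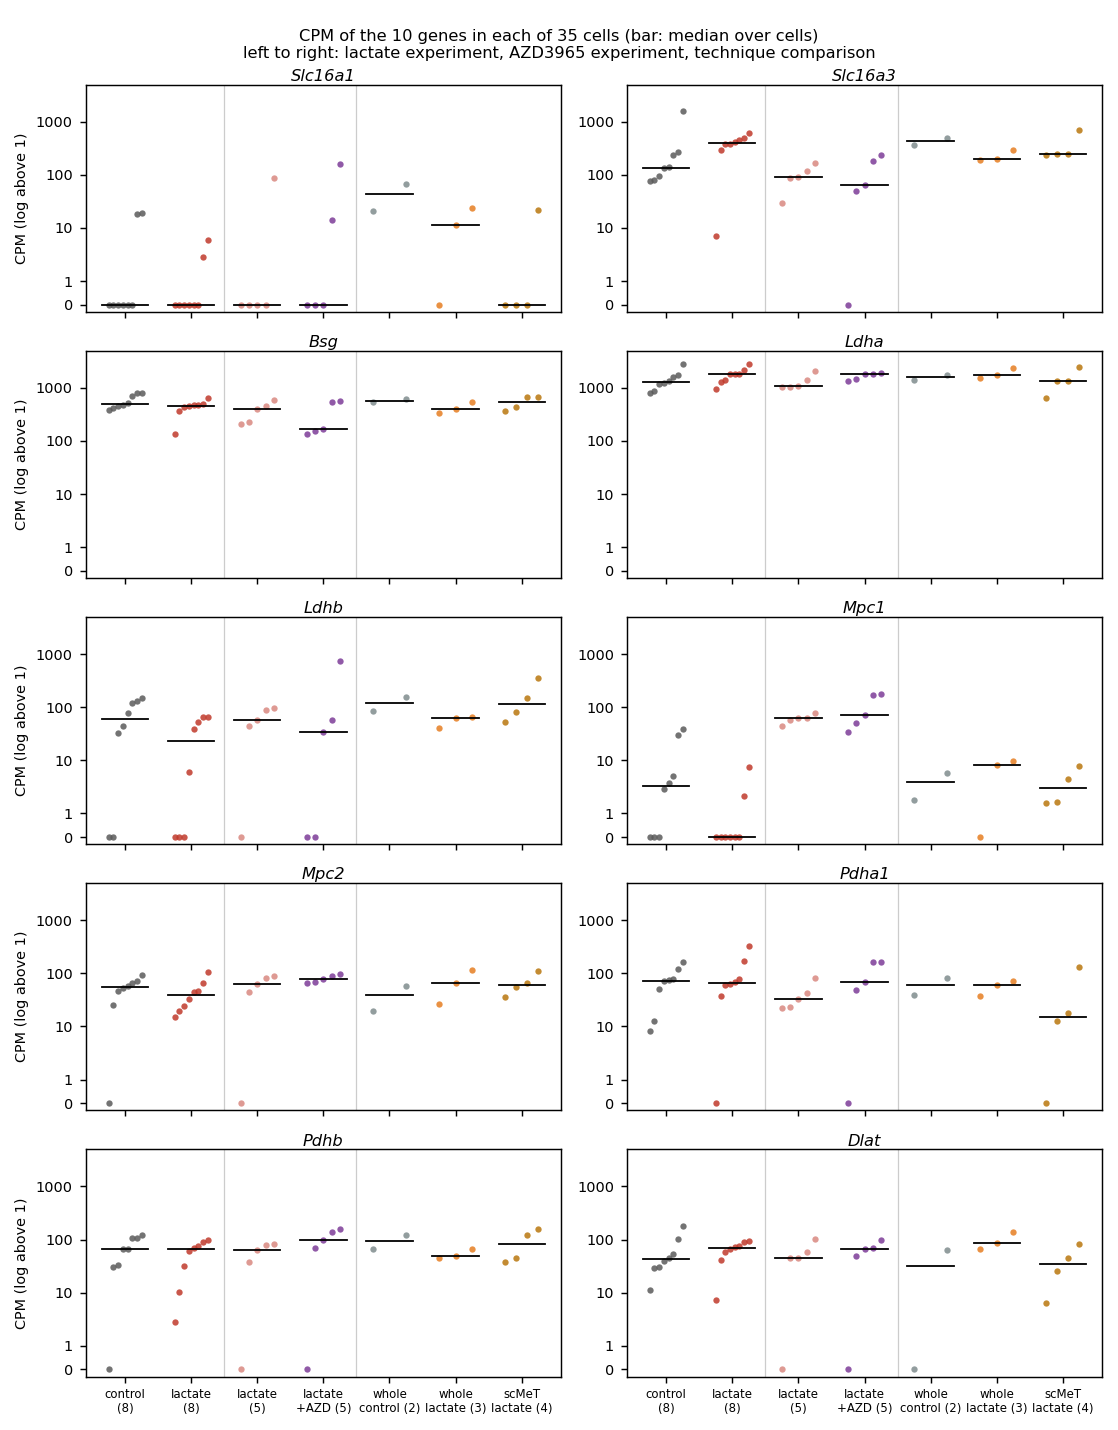
CPM of each of the 10 genes (y axis, logarithmic above 1 CPM) in each of 35 cells, by group (x axis, number of cells in brackets); dots are cells and bars are medians over cells. Ldha stays between 640.2 and 2817 CPM in every cell, Slc16a1 is at 0 in 23 of 35 cells, and Mpc1 is higher in the 2 groups of the AZD3965 experiment than in the other 5 groups.

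The 250 bases before the start of transcription are shown for Ldha and Slc16a3, whose levels were the most alike among the well-counted members in the lactate experiment, and for their paralogues Ldhb and Slc16a1. Sequences are from RefSeq (GRCm38.p6), read 5′ to 3′ on the strand of the gene, and RefSeq held 11 such windows for 9 of the 10 genes, with none for Bsg. The starts of Ldha and Slc16a3 used here lie inside the genes as annotated by GENCODE, and of the Slc16a3 window the 236 bases furthest from the start are printed. Capitals mark ACGTG, a form of the core of the hypoxia response element, on either strand. Other forms of that core were not searched for, so a window without a match may still hold them. A copy of CACGTG, the E-box, holds ACGTG on both strands and was counted as 2 matches.
Ldha, chr7:46845554-46845803, plus strand: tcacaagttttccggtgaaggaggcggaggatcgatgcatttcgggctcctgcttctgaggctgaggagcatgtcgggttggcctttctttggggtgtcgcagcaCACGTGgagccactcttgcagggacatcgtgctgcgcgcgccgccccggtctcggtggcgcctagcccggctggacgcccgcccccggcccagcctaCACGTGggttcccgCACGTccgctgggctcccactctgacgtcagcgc
Slc16a3, chr11:120948817-120949052, plus strand: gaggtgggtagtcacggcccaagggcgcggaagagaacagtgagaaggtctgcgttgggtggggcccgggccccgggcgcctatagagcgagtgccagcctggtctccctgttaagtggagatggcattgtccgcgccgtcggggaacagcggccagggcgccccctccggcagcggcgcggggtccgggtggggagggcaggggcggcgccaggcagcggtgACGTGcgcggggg
Ldhb, chr6:142507958-142508207, minus strand: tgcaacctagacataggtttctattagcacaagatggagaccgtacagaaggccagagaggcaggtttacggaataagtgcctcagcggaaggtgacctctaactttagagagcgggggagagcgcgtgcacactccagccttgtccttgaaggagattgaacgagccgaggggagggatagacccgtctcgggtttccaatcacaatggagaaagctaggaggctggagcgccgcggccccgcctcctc
Slc16a1, chr3:104638414-104638663, plus strand: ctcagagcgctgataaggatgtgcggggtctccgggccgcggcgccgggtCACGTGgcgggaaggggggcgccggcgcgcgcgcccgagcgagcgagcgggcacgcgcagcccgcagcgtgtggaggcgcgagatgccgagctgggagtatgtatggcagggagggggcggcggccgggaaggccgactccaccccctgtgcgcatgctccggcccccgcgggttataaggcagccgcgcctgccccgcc
The Ldha window held 5 matches, which formed an E-box beginning 145 bases before the start, another beginning 48 bases before it, and a single match 34 bases before it. In the Slc16a1 window 2 matches formed 1 E-box that began 200 bases before the start. The Slc16a3 window held a match 27 bases before the start and a further one 14 bases before it, which lies in an exon of another transcript and is not printed. No match stood in the Ldhb window, in a second Ldha window or in those of Mpc1, Mpc2, Pdha1 and Dlat, and the Pdhb window held 1 match. Of all 32851 windows of the same length 16.6% held ACGTG, beside 4 of 11 here. Those windows were not matched for base content or expression, and whether the shares differ was not tested. CACGTG stood in 6.02% of all windows, and here only in the Slc16a1 window and the Ldha window shown. A match is a run of letters, and binding was not measured.

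Slc16a3, the carrier for lactate export (chr11:120948480-120960868, plus strand, GRCm38), had more counts than Slc16a1 in all 7 groups. Its share of the summed Slc16a1 and Slc16a3 counts was 98.4% (95% interval 97.4 to 99.2) in control and 99.7% (99.3 to 99.9) in lactate-treated cells of the lactate experiment, 98.3% in the scMeT-seq cells, 95.3% in lactate-treated and 91.8% in control whole cells. In the AZD3965 experiment the share was 83.1% (73.7 to 90.2) with lactate and 71.1% (60.6 to 80.2) with lactate plus the drug. These 2 genes have nearly equal exonic lengths, 4426 bases for Slc16a1 and 4449 for Slc16a3, and dividing by length left the shares between 71.0% and 99.7%. Exact (Clopper-Pearson) intervals are given for all shares.

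Slc16a1, the target of AZD3965 (chr3:104638668-104658462, plus strand), was counted in a minority of cells. In the lactate experiment CTL32 held 19.4 CPM and CTL35 held 18.4 CPM, Lactic30 held 5.93 CPM and Lactic34 held 2.87 CPM, and the other 12 cells were at 0. Among cells with lactate in the AZD3965 experiment T13 held 85.5 CPM and the other 4 cells were at 0, and with the drug W10 held 160.2 CPM, W14 held 14.1 CPM and 3 cells were at 0. Lactic17 was the only scMeT-seq cell of the technique comparison with a count, at 22.1 CPM. In whole cells Slc16a1 stood at 24.3, 11.4 and 0 CPM with lactate and at 21.1 and 67.8 CPM in the controls, so both control cells had counts. The highest summed levels were 44.7 CPM with the drug, 39.7 CPM in whole control cells and 20.8 CPM in the lactate group of the AZD3965 experiment, followed by 10.9, 6.15, 4.42 and 0.987 CPM in the other 4. Levels from different tables stand side by side only, since the tables were counted separately. The annotation places 2 genes, Gm43581 and Gm43585, inside an intron of Slc16a1 on the same strand.

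With lactate, Slc16a1 was lower in both settings, on few counts. The summed level was 0.987 CPM (3 counts) against 4.42 CPM (13 counts) in the lactate experiment, a log2 ratio of -2.16 (95% interval -4.61 to -0.30). Of the 13 control counts 7 came from CTL32, the cell with fibroblast markers, and leaving out that cell gave -1.24, CTL35 gave -1.44 and Lactic30 gave -3.58. Without the 3 cells in which fibroblast or mesothelial markers reached 10% of the macrophage markers (CTL30, CTL32 and Lactic29) the ratio was -1.27 with an interval from -3.90 to 0.96, on 3 and 6 counts, which is under the minimum of 10 for a call. In whole cells the summed level was 10.9 CPM against 39.7 CPM, a log2 ratio of -1.86 (-2.70 to -1.09), which was -0.96 without CTL8, -2.64 without CTL4, -2.82 without Lactic5 and -1.21 without Lactic7.

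With AZD3965 the sign of the Slc16a1 ratio rested on single cells. The summed level was 44.7 CPM (26 counts) with the drug and 20.8 CPM (15 counts) without it, a log2 ratio of 1.10 (0.13 to 2.13). W10 held 92.3% of the counts with the drug and T13 all counts without it. Leaving out W10 turned the ratio to -2.17, leaving out T13 gave 3.02, and without T11, W5, W20 or F18 it was 0.74, 0.81, 0.74 or 0.91 and no longer past 2-fold, nor was it as the mean of the ratios within name letters (0.45) or under TMM scaling (0.95), which corrects for differences in composition between groups.

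Slc16a3 differed between lactate-treated and control cells in opposite directions in the 2 settings. Its lowest, median and highest levels were 77.8, 137 and 1589 CPM in the 8 control cells and 6.92, 399.5 and 599 CPM in the 8 lactate-treated cells. All lactate-treated cells except Lactic31, which was the lowest of all, held at least 291 CPM, and all control cells except CTL27, which was the highest of all, held at most 263 CPM, so the ranges overlapped through 1 cell on each side. CTL27 alone held 52.0% of the control counts. CTL27 also had the fewest genes counted of all 35 cells, 3392, and Lactic31 the fewest of the 8 lactate-treated cells, 5010. Whether this bears on their levels was not tested.

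The summed levels of Slc16a3 were 387 CPM with lactate and 279.7 CPM in controls, a log2 ratio of 0.47 (0.34 to 0.60). Without CTL27 the ratio was 1.39 and past 2-fold, and the ratio of the medians over cells, on a scale of CPM plus 1, was 1.54. Without the 3 cells with fibroblast markers it was 0.39 (0.25 to 0.53). In whole cells Slc16a3 stood at 291, 191 and 198 CPM with lactate and at 496 and 360.2 CPM in controls, so all 3 treated cells lay below both controls. Here the log2 ratio was -0.99 (-1.18 to -0.81), -1.18 without Lactic5 and -1.16 without CTL8. With only 3 and 2 cells, a full separation can readily arise without any difference. Its frequency over all genes is not given, here or for the other genes that separate in whole cells. Whether the 2 settings differ in their response was not tested.

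Under AZD3965 Slc16a3 differed little in summed level. Cells with lactate held 169.6 (T11), 91.2 (T13), 30.0 (W5), 117 (W20) and 88.4 CPM (F18), and cells with lactate plus the drug held 63.7 (T10), 180.3 (W10), 49.5 (W14), 0 (F8) and 232 CPM (F9). The groups overlapped, with F9 and W10 highest and F8, the shallowest cell, without a count. Summed levels were 103 and 110.1 CPM, a log2 ratio of 0.10 (-0.41 to 0.60) that turned to -0.06 under TMM scaling and also changed sign without W10 (-0.26), F9 or W5.

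Bsg, the chaperone of both carriers (chr10:79704491-79711969, plus strand), was the steadiest member after Ldha between groups. Its summed level ran from 311 CPM with lactate plus AZD3965 to 562 CPM in whole control cells, a 1.80-fold range. In the lactate experiment the lowest, median and highest cells held 391, 498 and 799.99 CPM in controls and 135, 460.3 and 653 CPM with lactate. The ranges overlapped, with Lactic31 again the lowest cell.

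Log2 ratios of Bsg were -0.33 (-0.44 to -0.23) with lactate, -0.37 (-0.52 to -0.23) with lactate in whole cells and -0.35 (-0.63 to -0.08) with AZD3965, none past 2-fold. From medians over cells of CPM plus 1, however, the ratio with AZD3965 was -1.28 and past 2-fold, and without W14 it was -0.73 (-1.07 to -0.41). In the lactate experiment the Bsg ratio shrank to -0.11 (-0.23 to 0.01) without the 3 cells with fibroblast markers, an interval that reaches past 0. In the AZD3965 experiment F9 and W14 held 553 and 537 CPM and the other 3 cells with the drug 137 to 167 CPM, against 209.9 to 587 CPM in the 5 cells without it.

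Ldha, which favours the step from pyruvate to lactate (chr7:46841475-46855627, plus strand), was counted in every cell at 640.2 to 2817 CPM. Its summed level was the least variable of the 10 between groups, from 1383 CPM in the lactate cells of the AZD3965 experiment to 1918 CPM in lactate-treated whole cells, a 1.39-fold range. In the lactate experiment the lowest, median and highest cells stood at 783, 1271 and 2817 CPM in controls and at 969, 1817 and 2770.4 CPM with lactate. CTL32 was the lowest and CTL27 the highest control cell, and the ranges overlapped.

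Ldha was higher with lactate in both settings, by less than 2-fold. Its log2 ratio was 0.35 (0.29 to 0.41) in the lactate experiment, between 0.24 and 0.51 with any 1 cell left out, and 0.33 (0.27 to 0.40) without the 3 cells with fibroblast markers. In whole cells the ratio was 0.25 (0.17 to 0.33), from 1549, 1749.8 and 2367 CPM with lactate against 1731 and 1429.95 CPM in controls, which overlapped. The lactate-treated scMeT-seq cells of the technique comparison stood at a summed 1431 CPM, below the 1612 CPM of whole control cells. Against whole lactate-treated cells their log2 ratio was -0.42 (-0.49 to -0.35). With AZD3965 the log2 ratio of Ldha was 0.28 (0.15 to 0.40). There the 5 cells with the drug held 1438, 1823, 1909, 1797 and 1349.9 CPM (T10, W10, W14, F8 and F9), and those without it held 1414, 2092, 1042, 1024 and 1105 CPM (T11, T13, W5, W20 and F18), overlapping because of T11 and T13.

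Ldha and Slc16a3 tended to be high in the same cells of the lactate experiment. Across its 16 cells Spearman's rho was 0.86, with 0.79 within the 8 control and 0.64 within the 8 lactate-treated cells, the highest value for any pair of the 10 genes. CTL27 and Lactic27 were the 2 highest cells for both genes, and Lactic31 was the lowest for Slc16a3 and among the lowest for Ldha. Of 2882 genes with a count in at least 14 of these cells and a mean of at least 50 CPM, the 5 whose level was most like that of Ldha were Pgam1 (rho 0.94, 0.95 within controls and 0.86 within lactate-treated cells), Pgk1 (0.91), Alkbh5 (0.83), Pkm (0.81) and Cpne2 (0.80). Within controls rho was 0.90 for Pgk1, 0.64 for Alkbh5, 0.67 for Pkm and 0.74 for Cpne2. Within lactate-treated cells it was 0.88, 0.93, 0.67 and 0.79 in the same order. These correlations are descriptions over cells that share libraries of 2 groups and 1 table, and no test was made of them.

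**Figure D2:**
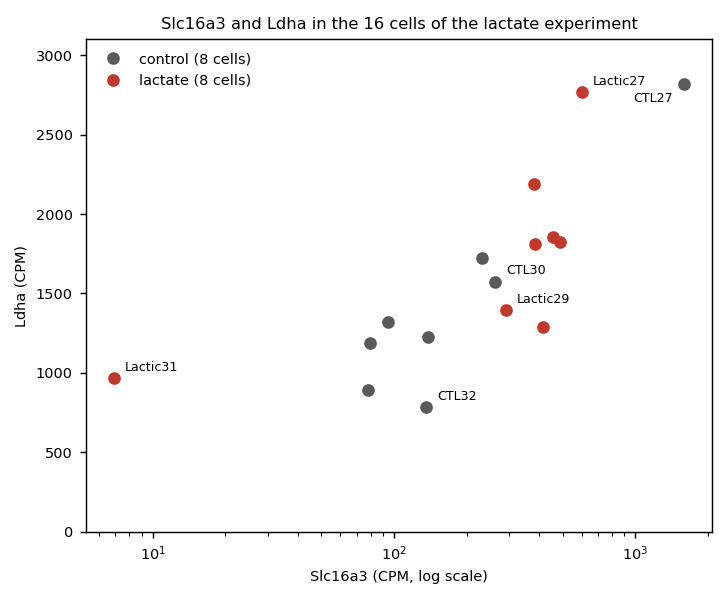
Ldha (y axis, CPM) against Slc16a3 (x axis, CPM, logarithmic) in the 16 cells of the lactate experiment, 8 control and 8 lactate-treated; each dot is a cell. CTL27 (1589 and 2817 CPM for Slc16a3 and Ldha) lies among the treated cells or beyond them, Lactic31 (6.92 and 969 CPM) lies apart at the left, and the other cells of the groups separate at about 263 to 291 CPM of Slc16a3.

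Ldhb, the subunit typical of tissues that oxidise lactate (chr6:142490249-142507957, minus strand), was a minor part of lactate dehydrogenase counts. Per length, Ldha exceeded it 5.82-fold to 39.6-fold in the 7 groups. As a share of the summed Ldha and Ldhb counts, Ldhb made up 4.90% (4.27 to 5.59) in control and 1.71% (1.38 to 2.09) in lactate-treated cells of the lactate experiment. In whole cells the share was 6.61% (5.65 to 7.67) in controls and 2.85% (2.32 to 3.46) with lactate. It was thus lower with lactate in both settings. The lactate-treated scMeT-seq cells of the technique comparison, however, had a share of 9.42% (8.51 to 10.4), above both control groups. Lactic13 stood at 18.9%, Lactic14 at 21.1%, Lactic16 at 3.17% and Lactic17 at 3.74%.

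Single cells varied widely in this share. In the lactate experiment 4 of 8 control cells lay between 8.92% and 11.9%, and no lactate-treated cell exceeded 4.00%. CTL27 and CTL35 had no Ldhb count, nor had Lactic27, Lactic29 and Lactic31, so the ranges overlapped at the low end. In whole cells the share was 4.13, 3.51 and 1.70% with lactate and 4.66 and 9.99% in controls, which did not overlap.

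The Ldhb level itself was lower with lactate in both settings. Lowest, median and highest cells stood at 0, 60.5 and 146 CPM in controls and at 0, 22.7 and 65.9 CPM with lactate, and the summed levels were 71.7 CPM (211 counts) and 30.9 CPM (94 counts). The log2 ratio was -1.21 (-1.58 to -0.86), which is -0.99 without CTL31, the highest cell, and -1.12 (-1.50 to -0.75) without the 3 cells with fibroblast markers. In whole cells, 66.7, 63.7 and 40.9 CPM with lactate lay below 84.6 and 159 CPM in controls, and the log2 ratio was -1.02 (-1.40 to -0.65). It was no longer past 2-fold without CTL8 (-0.59), without Lactic7 (-0.81) or under TMM scaling (-0.84). The lactate-treated scMeT-seq cells had a summed Ldhb level of 149 CPM, above the 114 CPM of whole control cells.

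One cell set the Ldhb result of the AZD3965 experiment. Cells with lactate held 56.5 (T11), 96.9 (T13), 45.0 (W5), 0 (W20) and 88.4 CPM (F18), and cells with lactate plus the drug held 56.7 (T10), 0 (W10), 743 (W14), 34.2 (F8) and 0 CPM (F9). W14 carried 91.3% of the Ldhb counts of its group, and it is the cell with 10 of 14 fibroblast and 5 of 9 mesothelial markers counted, whose part in the result was not tested beyond leaving the cell out. Summed levels were 198 CPM with the drug and 55.5 CPM without it, a log2 ratio of 1.83 (1.30 to 2.39), which turned to -1.29 (-2.45 to -0.26) without W14 and was 0.33 as the mean of the ratios within the letters T, W and F of the cell names. The share of Ldhb was 28% in W14 and 0 to 3.79% in the other 4 cells with the drug, against 0 to 7.41% in the 5 cells without it.

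**Figure D3:**
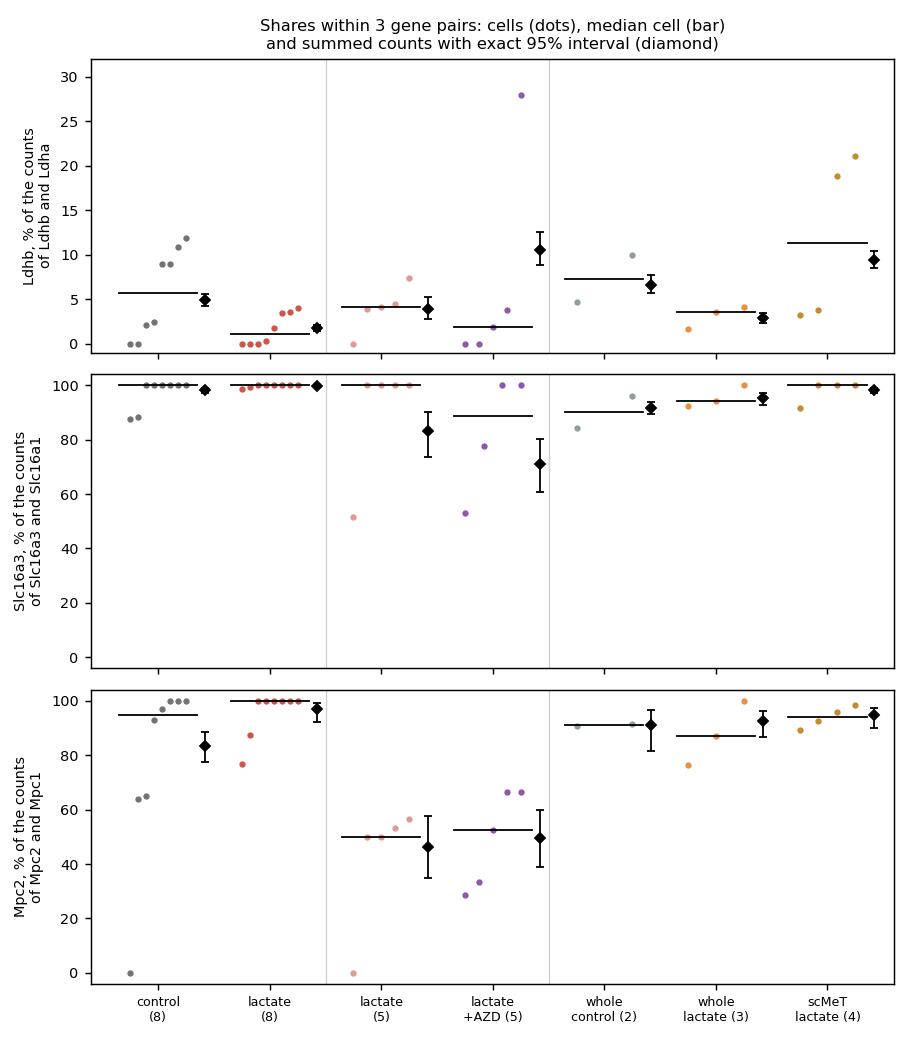
Share of Ldhb in Ldha and Ldhb counts (top), of Slc16a3 in Slc16a1 and Slc16a3 counts (middle) and of Mpc2 in Mpc1 and Mpc2 counts (bottom), in percent (y axes), by group (x axis, number of cells in brackets). Dots are cells with a count of either gene, bars their medians, and diamonds the shares of summed counts with exact 95% intervals: Ldhb lies at 4.90% in controls and 1.71% with lactate, and the diamond of 10.6% with AZD3965 stands far above its median cell because of W14 at 28%.

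The mitochondrial pyruvate carrier subunits Mpc1 (chr17:8282904-8297661, plus strand) and Mpc2 (chr1:165460637-165481214, plus strand) were counted very unequally outside the AZD3965 experiment. Mpc2 made up 83.5% (77.4 to 88.5) of their counts in control and 96.9% (92.3 to 99.1) in lactate-treated cells of the lactate experiment, and 91.0 to 94.7% in the 3 groups of the technique comparison. In the AZD3965 experiment it made up 46.2% (35 to 57.8) with lactate and 49.5% (39.1 to 59.9) with the drug added.

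This difference lay in Mpc1. Its summed level was 59.7 and 82.6 CPM in the 2 groups of the AZD3965 experiment and 1.32 to 10.5 CPM in the other 5 groups, whereas Mpc2 ranged from 41.1 to 80.9 CPM over all 7. Mpc1 was counted in all 10 cells of the AZD3965 experiment, at 33.4 to 177 CPM, and the lowest of its lactate cells (45.0 CPM) lay above the highest control cell of the lactate experiment (38.5 CPM). The AZD3965 table was counted against another gene list and also lists the pseudogene Mpc1-ps, with 46 counts over 10 cells, which the other tables do not list. Experiment and counting cannot be told apart here. Moreover 4930506C21Rik overlaps Mpc1 on the opposite strand, and Gm37860 overlaps Mpc2.

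Mpc1 was lower with lactate in the lactate experiment, on few counts. Controls held 14 counts in CTL31, 13 in CTL33, 2 in CTL30 and 1 each in CTL27 and CTL34, and lactate-treated cells held 3 counts in Lactic29 and 1 in Lactic32. In CPM the lowest, median and highest cells were 0, 3.32 and 38.5 in controls and 0, 0 and 7.35 with lactate, so the ranges overlapped at 0 and up to Lactic29. The log2 ratio of 1.32 over 10.5 CPM was -3.00 (-4.96 to -1.50), -4.79 without Lactic29, -2.33 without CTL31 and -5.13 (-10.5 to -2.53) without the 3 cells with fibroblast markers, of which Lactic29 is one.

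In whole cells Mpc1 was at 8.09, 9.79 and 0 CPM with lactate and 5.87 and 1.78 CPM in controls, on 10 and 6 counts, with a log2 ratio of 0.43 (-1.17 to 2.18) that ran from -0.26 without Lactic6 to 1.69 without CTL4 and also turned without CTL8. Mpc2 stood at 26.3, 65.3 and 113 CPM with lactate and 58.7 and 19.6 CPM in controls there, a log2 ratio of 0.73 (0.28 to 1.2) that was 1.87 without CTL4 and 1.05 without Lactic5, with overlapping ranges. In the lactate experiment Mpc2 had a log2 ratio of -0.38 (-0.73 to -0.03), from lowest, median and highest cells of 0, 55.3 and 94.0 CPM in controls and 15.2, 38.4 and 107 CPM with lactate. Neither subunit passed 2-fold with AZD3965, at 0.47 (-0.16 to 1.10) for Mpc1 and 0.66 (0.00 to 1.32) for Mpc2, and 0.31 and 0.50 of these remained under TMM scaling.

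The pyruvate dehydrogenase subunits were counted in most cells at similar summed levels. Pdha1 (chrX:160122209-160138413, minus strand) and Pdhb (chr14:8165996-8173025, minus strand) encode the 2 chains of the E1 component, which decarboxylates pyruvate, and Dlat (chr9:50634633-50659780, minus strand) encodes E2, which passes the acetyl group to coenzyme A. Summed levels ran from 36.5 to 94.7 CPM for Pdha1, 47.2 to 89.3 CPM for Pdhb and 38.2 to 93.0 CPM for Dlat. Per length Pdhb exceeded Pdha1, and Pdha1 exceeded Dlat, in all groups except lactate-treated whole cells, where Dlat stood at 23.0 and Pdha1 at 19.5 CPM per kb. Map3k15, a protein-coding gene, overlaps Pdha1 on the opposite strand, and since no use of strand is stated for the counting, reads from overlapping genes may not have been told apart.

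With lactate, none of the 3 subunits differed by 2-fold. Their log2 ratios were 0.33 (0.08 to 0.59) for Pdha1, -0.31 (-0.61 to -0.01) for Pdhb and 0.16 (-0.15 to 0.47) for Dlat. Pdha1 had lowest, median and highest cells of 8.24, 72.6 and 167 CPM in controls and 0, 66.0 and 325 CPM with lactate, and the highest of these, Lactic31, turned the ratio to -0.09 when left out. Lactic31 thus held the highest Pdha1 and the lowest Slc16a3 and Bsg of all 16 cells.

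In whole cells Dlat and Pdhb differed with lactate in opposite directions. Dlat stood at 135, 66.9 and 84.9 CPM with lactate and at 63.4 (CTL4) and 0 CPM (CTL8) in controls, all treated cells above both controls. Its log2 ratio was 1.28 (0.83 to 1.75), but 0.55 without CTL8, 0.99 without Lactic5 and 4.12 without CTL4. Pdhb stood at 66.7, 45.7 and 48.8 CPM with lactate, below 66.9 and 123 CPM in controls, a log2 ratio of -0.76 (-1.16 to -0.36), and -1.22 without CTL4. Pdha1 held 70.8, 37.5 and 61.4 CPM against 39.9 and 80.2 CPM, with a log2 ratio of -0.01 (-0.45 to 0.44), -0.53 without CTL4 and 0.48 without CTL8.

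Pdha1 was past 2-fold with AZD3965, though barely. Cells with the drug held 49.6 (T10), 0 (W10), 163 (W14), 68.4 (F8) and 166 CPM (F9), and cells with lactate alone held 81.7 (T11), 22.8 (T13), 22.5 (W5), 43.2 (W20) and 33.1 CPM (F18). The groups overlapped through W10 and T11. The log2 ratio was 1.02 (0.33 to 1.72) and no longer past 2-fold under TMM scaling (0.86) and without W14 (0.51), F9 (0.73), T13 (0.82), W5 (0.87) or F18 (0.98). Pdhb was at 0.75 (0.08 to 1.43), and past 2-fold without W10 (1.18) or W5 (1.01), and Dlat was at 0.09 (-0.65 to 0.83), turning to -0.37 without T10 and to -0.06 under TMM scaling. The W10 library had no count of Pdha1, Pdhb, Dlat or Ldhb.

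The number of the 10 genes past 2-fold is given for each comparison beside the share of all genes tested. Of the 10 genes, 0 were at least 2-fold higher and 3 at least 2-fold lower with lactate (Slc16a1, Ldhb and Mpc1), against 15.1% and 22.0% of 11506 genes tested. Their median log2 ratio was -0.32 beside -0.09 over all genes, and without the 3 cells with fibroblast markers it was -0.11, with 2 genes lower (Ldhb and Mpc1) and Slc16a1 under the minimum of 10 counts. In whole cells 1 member was higher (Dlat) and 2 were lower (Slc16a1 and Ldhb), against 15.2% and 27.6% of 9732 genes, with a median of -0.19 beside -0.20.

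With AZD3965, 3 members were higher (Slc16a1, Ldhb and Pdha1) and 0 lower, against 24.9% and 15.6% of 8764 genes, with medians of 0.56 and 0.17. TMM scaling moved all log2 ratios of this comparison down by 0.16, leaving 1 member higher. Without W14 there was also 1 higher (Slc16a1) and 1 lower (Ldhb). Ldhb and Slc16a1 were thus past 2-fold in each of these 3 comparisons, in opposite directions with lactate and with AZD3965, the latter resting on W14 and W10.

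**Figure D4:**
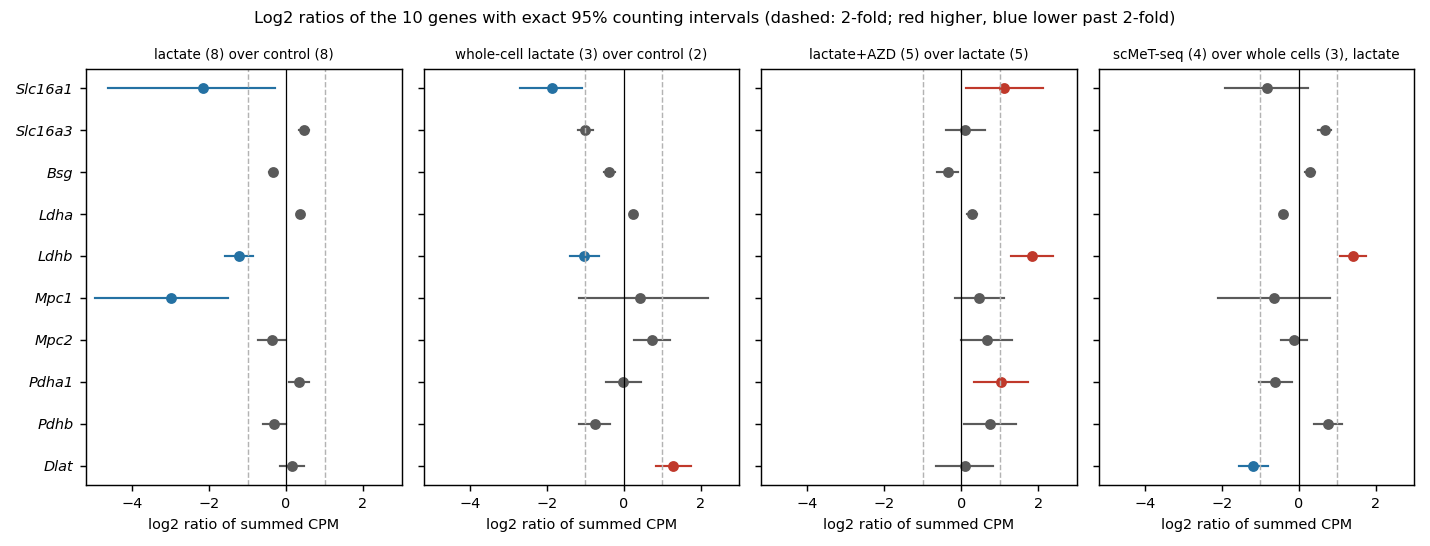
Log2 ratio of summed CPM (x axes) of the 10 genes (y axis) in 4 comparisons, with exact 95% counting intervals as lines; dashed lines mark 2-fold, and red and blue mark genes past 2-fold higher and lower. Ldhb lies at -1.21 and -1.02 with lactate and Ldha at 0.35 and 0.25, whereas Slc16a3 lies at 0.47 in one lactate comparison and at -0.99 in the other.

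The technique comparison shares its 3 whole lactate-treated cells with the whole-cell comparison above. Between techniques, 1 member was higher in scMeT-seq than in whole lactate-treated cells (Ldhb) and 1 lower (Dlat), against 21.7% and 20.6% of 9723 genes, with a median log2 ratio of -0.28 beside 0.02. Ldhb stood at 149 (Lactic13), 354 (Lactic14), 79.4 (Lactic16) and 53.0 CPM (Lactic17) in scMeT-seq cells, and the 3 whole cells lay within or below this range. The log2 ratio was 1.40 (1.08 to 1.74), 0.73 without Lactic14, which held 50.7% of the counts, and 0.86 with the control whole cells added. Dlat stood at 6.28, 25.0, 44.7 and 82.5 CPM in the same cells, overlapping the whole cells through Lactic17 alone, with a log2 ratio of -1.18 (-1.56 to -0.81). It was -0.80 without Lactic13, -0.89 without Lactic5, -1.90 without Lactic17 and -0.74 with the control whole cells added.

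Among the other 8 members, log2 ratios between techniques lay from -0.83 for Slc16a1 to 0.76 for Pdhb. Lactic16 held 689.8 CPM of Slc16a3 and 2428 CPM of Ldha, the highest of the 4 scMeT-seq cells for both, and Lactic14 held 77.5% of the Pdha1 counts of its group. Without that cell Pdha1 was at -2.42. Slc16a1, on 15 and 19 counts, ran from -2.68 without Lactic17 to 0.13 without Lactic5, and Mpc1, on 9 and 10 counts, from -1.29 without Lactic7 to 0.06 without Lactic6. Mpc2 was at -0.13 (-0.48 to 0.22) and turned to 0.45 without Lactic7, and Pdhb passed 2-fold, at 1.01, without Lactic16 or without Lactic17.

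Of 12 partners and regulators of the complex 11 were tested, and 3 were at least 2-fold higher and 5 lower with lactate, with a median log2 ratio of -0.59, beside 15.1% higher, 22.0% lower and a median of -0.09 over all genes. Pdk1, a kinase that switches the complex off, had 426 counts in 7 of 8 lactate-treated cells against 66 counts in 4 of 8 controls, a log2 ratio of 2.64 (2.27 to 3.04). Pdk3, another such kinase, was at -1.83 (-2.41 to -1.29), Pdhx, which binds the E3 component into the complex, at -3.51 (-4.87 to -2.39), and Lias, which makes its lipoyl cofactor, at -1.01 (-1.64 to -0.40). In whole cells Pdk1 stood on the other side, at -1.13 (-1.50 to -0.75), among 0 higher and 4 lower of 10 tested with a median of -0.89, beside 15.2%, 27.6% and -0.20 over all genes.

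Of 16 other monocarboxylate carriers and partners 8 were tested with lactate, 4 higher and 1 lower with a median of 0.81, against the same 15.1%, 22.0% and -0.09 over all genes. Slc16a6, at 1.22 (0.78 to 1.68), and Slc16a7 (MCT2), at 1.07 (0.59 to 1.58), had the most counts among those higher. For Slc16a6 the median and highest cells held 28.1 and 276.8 CPM with lactate, and 0 and 86.0 CPM in controls. Single cells were not left out in turn for genes of these pathway lists, so how far such ratios rest on single cells was not tested. Whole cells had 1 of 7 higher and 1 lower, with a median of -0.57, against 15.2%, 27.6% and -0.20 over all genes. The lower one was Slc16a6 at -1.18 (-1.81 to -0.57). Its lowest, median and highest cells held 2.02, 11.4 and 44.0 CPM with lactate. The whole control cells held 10.6 and 101.6 CPM, so the ranges overlapped.

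Among 17 other enzymes of pyruvate and lactate 12 were tested with lactate, with a median of 0.05, 0 higher and 1 lower against 15.1% and 22.0% of all genes. The lower one was Glo1, the glyoxalase that leads methylglyoxal towards D-lactate, at -1.09 (-1.40 to -0.78). Pkm, the pyruvate kinase that supplies pyruvate, was at 0.32 (0.28 to 0.36) in the lactate experiment and 0.31 (0.26 to 0.37) in whole cells, where all 3 treated cells lay above both controls. Whole cells had 4 of 11 higher and 0 lower, against 15.2% and 27.6% of all genes, with a median of 0.63, among them Mdh1, the cytosolic malate dehydrogenase, at 1.21 (0.99 to 1.43) and Glo1 at 1.48 (0.94 to 2.05), which was on the other side in the lactate experiment. With AZD3965, 1 of 7 partners and regulators was higher and 1 lower, 1 of 5 carriers was higher and 1 of 10 enzymes was higher, with medians of 0.25, 0.22 and -0.15, beside 24.9% higher, 15.6% lower and a median of 0.17 over all genes. Between techniques these counts were 3 higher and 1 lower of 9, 0 and 3 of 8, and 2 and 1 of 12, with medians of 0.32, -0.36 and -0.27, beside 21.7%, 20.6% and 0.02 over all genes.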

How the data were processed

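RNA libraries of 35 single cells were analysed. The authors trimmed reads with fastp 0.20.0, aligned them to mm10 with HISAT2 2.1.0 and used StringTie. They deposited the resulting gene counts as whole numbers, not normalized. The AZD3965 table was counted against another gene list. Its counts hold the value 2 in 6215 entries and the value 1 in 1914, so its intervals may be too narrow.

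Here counts were summed per group and turned into CPM. The log2 ratio of summed CPM was given with a 95% interval that is exact for counting error (binomial, conditional on the total). A gene needed at least 10 counts in the compared groups together, a sum of 0 was set to 3 counts, and 2-fold was the threshold for a call. In all, 4 comparisons were made without a test over cells. Python 3.11.15, numpy 2.4.6, pandas 2.3.3, scipy 1.17.1, and matplotlib 3.10.9 were used, and TMM factors came from R 4.3.3 with edgeR 4.0.16. Gene positions, exonic lengths and overlaps came from GENCODE M21. The intervals were tested on simulated counts drawn with counting error alone, the error they assume. That check cannot show how they hold under amplification or differences between cells.

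The 10 genes, the pathway and marker lists and the comparisons were chosen with earlier results of these data known. All 10 genes are named. Of each pathway list at most 4 genes per comparison could be named, those past 2-fold with the most counts first, else those with the most counts. Genes like Ldha were the 5 with the highest Spearman rho over 16 cells, among genes with a count in at least 14 of them and a mean of at least 50 CPM, without predicted genes. Alternatives were TMM scaling, the mean or median of per-cell CPM, a minimum of 100 counts or none, matched cell numbers or name letters, all 5 whole cells, leaving out each cell in turn, and leaving out cells whose fibroblast or mesothelial markers reached 10% of the macrophage markers (CTL30, CTL32, Lactic29 and W14). Values of 1 gene of the pathway lists are not reported here. The metabolomes were not analysed here.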

Additional observations from a re-analysis of the deposited data

Results flagged for a closer look

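In 14 of 65 groups of 4 to 8 cells, 1 cell lay further from the rest than Dixon's criterion allows at the 95% level. Chance meets that criterion in about 1 in 20 groups of normally distributed values. Untransformed CPM and bounded shares need not follow that rate, so 14 of 65 cannot be set against it. Many of these groups hold cells at 0, and genes measured in the same cell are not independent. CTL27 had 1589 CPM of Slc16a3, with the next control cell at 263 CPM, and 2817 CPM of Ldha, with the next at 1723 CPM. Its share of Mpc2 in Mpc1 and Mpc2 counts was 0%, on 1 count, with the next control cell at 63.9%. Lactic29 had 7.35 CPM of Mpc1, with the next lactate-treated cell at 2.17 CPM.

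In the AZD3965 experiment T13 held 85.5 CPM of Slc16a1 while the other 4 lactate cells were at 0. Its share of Slc16a3 in the lactate carriers was 51.6% against 100% in those cells, and its share of Mpc2 was 0% against at least 50%. W10 held 160.2 CPM of Slc16a1, with the next cell of its group at 14.1 CPM. W14 held 743 CPM of Ldhb, with the next cell at 56.7 CPM, and a Ldhb share of 28%, with the next at 3.79%.

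Among the scMeT-seq cells Lactic17 held 22.1 CPM of Slc16a1 against 0 in the other 3, and its Slc16a3 share was 91.7% against 100%. Lactic16 held 689.8 CPM of Slc16a3, with the next cell at 246 CPM, and Lactic14 held 133 CPM of Pdha1, with the next at 17.7 CPM.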

How the results depend on the processing

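No paired analysis was possible because the results come from no test, so that no replicate block could be fitted. Sums over only those cells whose number occurs in both groups of the lactate experiment gave 0 members higher, 3 lower and a median of -0.27. Of 550 alternative values for the log2 ratios of single genes 523 kept their sign, and 460 lay within the counting interval of the reported ratio. Of 191 alternative counts, medians and detection totals 158 stayed close to the reported value. Most alternatives left out 1 cell and share all other cells with the reported value, so they are not independent of it. Calls that reversed were those of Slc16a1 with AZD3965, at -2.17 without W10, and of Ldhb with AZD3965, at -0.71 from medians of CPM plus 1 and at -1.29 without W14, which is also the setting without cells with fibroblast or mesothelial markers. Leaving out 1 cell at a time gave -2.17 to 3.02 for Slc16a1 and -1.29 to 2.26 for Ldhb there.

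The number of members past 2-fold changed as follows. With lactate, 1 was higher (Slc16a3) and 2 were lower from medians of CPM plus 1, 2 were lower without the 3 marker-bearing cells, and 1 was lower under a minimum of 100 counts. With AZD3965, 1 was higher under TMM scaling, medians of CPM plus 1, a minimum of 100 counts, the mean within name letters, or without the marker-bearing cell, and 1 was lower from medians of CPM plus 1 (Bsg, at -1.28) and without that cell (Ldhb). Between techniques, 0 were higher from medians of CPM plus 1 and with all 5 whole cells, 2 were lower from the mean of per-cell CPM and 4 from medians of CPM plus 1. In whole cells 1 was lower under TMM scaling and under a minimum of 100 counts. Leaving out 1 cell at a time gave 0 to 1 higher and 2 to 3 lower with lactate, 1 to 3 and 0 to 1 with AZD3965, 0 to 2 and 0 to 3 between techniques, and 0 to 3 and 1 to 3 in whole cells. Causes of these changes were not tested, except that a minimum of 100 counts leaves fewer genes tested.

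Over the 10 genes in 35 cells, 297 values held a count, 292 after thinning to the smallest total of each table and 266 at a minimum of 5 counts. A 0 in the AZD3965 experiment allows up to 51.3 CPM in its shallowest cell.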
